A study of Drosophila melanogaster with 2 samples.

Results

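The genes described here build and supply the protein factory inside mitochondria. They encode proteins of the mitochondrial ribosome (mRpL for the large and mRpS for the small subunit), translocases of the outer and inner membrane that carry proteins into the organelle (Tom and Tim), and the aminoacyl-tRNA synthetases that charge mitochondrial tRNAs (names ending RS-m). They were chosen by name and place: protein-coding genes whose symbols fit these patterns, on chromosome arm 2L up to position 22247875 or on 3L up to position 5149852, in the annotation of genome build BDGP6. These are stretches where genes that every cell needs were listed at levels that fit their names; elsewhere many such genes were listed at or near 0. Of 23932 features in the table, 23 genes met the rule, out of 103 with such names on all arms. They were 11 large-subunit genes, 6 small-subunit genes, the import genes Tom70 and Tim17b2, and 4 synthetase genes.

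RNA was extracted from hindguts of adult Drosophila melanogaster that carried bynGal4, a driver line named for the hindgut gene brachyenteron, in both age groups. Mature hindguts were dissected after adults had spent 4 days at 18 °C, and young hindguts right after emergence; all animals were raised at 25 °C. Each condition was sampled as 100 to 150 guts in 3 replicates, 6 libraries in all, and how the replicates were formed is not stated. Age and adult temperature changed together and cannot be told apart. Adult ileal cells are the labelled cell type, although hindguts were dissected and no sorting of cells is described. The hindgut patterning genes bowl, cad and drm were listed at means of 5012, 4806 and 13433 normalized counts per the authors' deposited table.

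Mitochondria keep a small genome of their own that codes for core subunits of the respiratory chain. These are translated inside the organelle by a ribosome whose proteins are all encoded in the nucleus, made in the cytoplasm and imported, as are the synthetases. In the hindgut, an epithelium that reabsorbs ions and water, respiration supplies ATP to ion pumps.

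The deposited values are, per gene, a mean of normalized counts over the libraries of both ages and a log2 fold change of young over mature with its standard error. A positive log2 change is therefore higher in young guts and a negative one higher in mature guts. Values per library were not analysed here, so the spread between replicates enters only through that standard error, and the 95% intervals below were computed from it. Where a bulk tissue changes, fewer cells of a type and less RNA per cell cannot be told apart.

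The comparison asked which of these genes differed between the ages. In the authors' deposited table, none of the 22 genes tested was higher in mature guts and all 22 were higher in young guts (DESeq2 Wald test, adjusted p under 0.05). At an unadjusted p under 0.05 the counts were also 0 and 22, against 24.1% and 24.0% of the tested features of the stretches. Among all 2604 features tested in the same stretches, 19.7% were higher in mature and 20.7% higher in young guts. Among the 1877 of them with a mean of at least 100, the shares were 24.9% and 25.4%. The median log2 change of the 22 genes was 0.65, against -0.01 for all tested features of the stretches. The remaining gene, Tim17b2, was listed at 0 and had no test. The changes were moderate: the highest estimates were 2.18-fold for mRpS35 and 2.04-fold for mRpS6, with intervals that reach down to 1.90 and 1.75. Of the 22 log2 changes, 15 lay between 0.5 and 0.85. No gene of the set appeared in the shorter lists of strong changes that the authors also deposited. The smallest absolute log2 change on the young side of those lists was 1.96, above the log2 1.13 of mRpS35, the highest of the set.

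**Figure D1:**
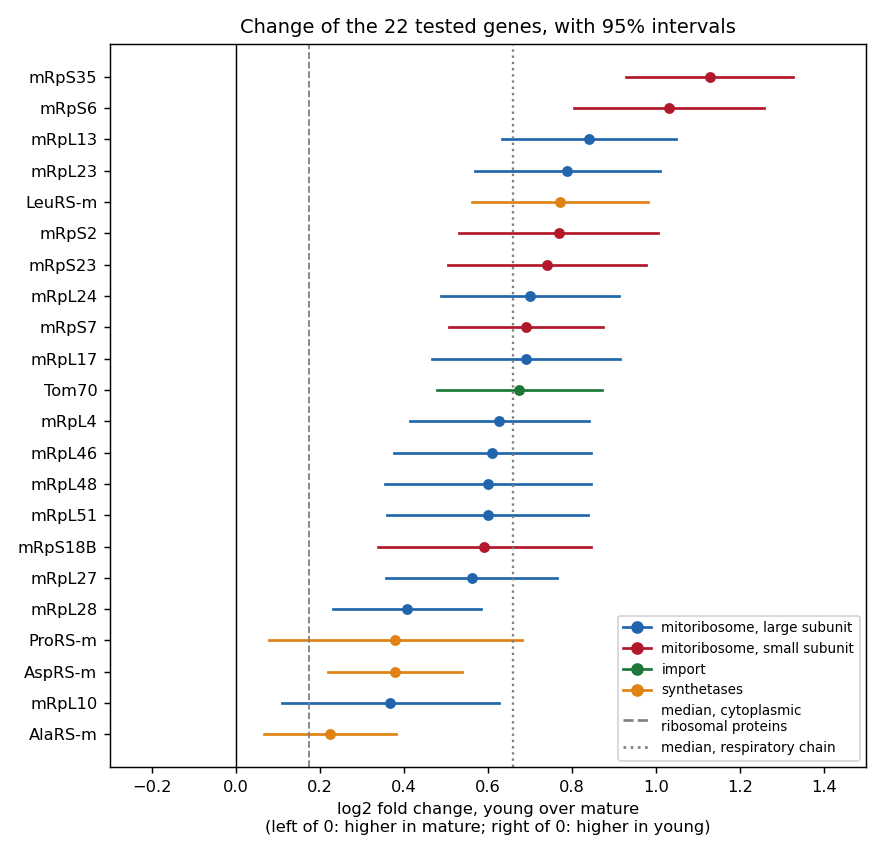
The log2 fold change of young over mature (horizontal axis) is shown for each of the 22 tested genes, with its 95% interval from the deposited standard error, coloured by gene group. All 22 intervals lie to the right of 0, from AlaRS-m at 0.22 to mRpS35 at 1.13; the dashed line marks the median of cytoplasmic ribosomal protein genes at 0.17 and the dotted line that of respiratory chain genes at 0.66.

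The small subunit of the mitochondrial ribosome binds the mRNA and reads its codons. All 6 of its genes tested were higher in young guts, none in mature, with log2 changes between 0.59 and 1.13 and a median of 0.75. mRpS35 (3L, 2780899 to 2782105), a protein without a bacterial counterpart, led the set at 2.18-fold higher in young guts per the authors' deposited table (95% interval of the fold 1.90 to 2.51, log2 1.13, standard error 0.10, adjusted p = 5.32e-27). mRpS6 (3L, 4364550 to 4365243), of the bacterial S6 family, followed at 2.04-fold per the authors' deposited table (95% interval 1.75 to 2.39, log2 1.03, standard error 0.12, adjusted p = 8.71e-18). mRpS2, of the family that sits beside the mRNA exit in bacterial ribosomes, and the mitochondrion-specific mRpS23 had log2 changes of 0.77 and 0.74 per the authors' deposited table. mRpS7, whose bacterial relative organizes the head of the subunit, had one of 0.69, and mRpS18B, one of the fly proteins of the bacterial S18 family, one of 0.59 per the authors' deposited table. The interval of mRpS35 lay above that of 15 of the other genes; it overlapped those of mRpS6, mRpL13, mRpL23, LeuRS-m, mRpS2 and mRpS23.

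The large subunit forms the peptide bonds and holds the exit tunnel. All 11 of its genes were higher in young guts, none in mature, with log2 changes between 0.37 and 0.84 and a median of 0.61. mRpL13 (2L, 18858028 to 18859248), which shares 35.2% of its exon bases with CG10602 on the same strand, was the highest of them at 1.79-fold per the authors' deposited table (95% interval 1.55 to 2.06, log2 0.84, standard error 0.11, adjusted p = 3.55e-14). mRpL23, mRpL24 and mRpL4, whose bacterial relatives line or flank the exit tunnel, had log2 changes of 0.79, 0.70 and 0.63 per the authors' deposited table. mRpL17, which belongs to another family shared with bacteria, had a log2 change of 0.69 per the authors' deposited table. The mitochondrion-specific proteins mRpL46, mRpL48 and mRpL51 lay close together at 0.61, 0.60 and 0.60 per the authors' deposited table. mRpL27, of a family whose bacterial member reaches toward the peptidyl transferase centre, had a log2 change of 0.56 per the authors' deposited table.

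Lower changes were found for 2 large-subunit genes. mRpL28 (2L, 4973976 to 4975316), the most abundant gene of the set per length, had a log2 change of 0.41 (95% interval 0.23 to 0.58, adjusted p = 4.32e-05) per the authors' deposited table. mRpL10 (2L, 203779 to 204782), of the family that carries the factor-binding stalk in bacteria, had one of 0.37 (95% interval 0.11 to 0.63, adjusted p = 0.0195) per the authors' deposited table. Grouped by descent, a grouping made after the values were seen, the 12 mitoribosomal genes with bacterial counterparts had a median log2 change of 0.69 and the 5 mitochondrion-specific ones a median of 0.61, and their ranges overlapped (0.37 to 1.03 and 0.60 to 1.13). Over the 17 mitoribosomal genes the standard deviation of the log2 change was 0.19, and over the 22 tested genes it was 0.21. The median standard error of the 22 single estimates was 0.11.

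The import genes were Tom70 and Tim17b2. Tom70 (2L, 12035984 to 12038511), an outer membrane receptor that takes up carrier-type precursors, was 1.60-fold higher in young guts per the authors' deposited table (95% interval 1.39 to 1.83, log2 0.67, standard error 0.10, adjusted p = 2.10e-10). Tim17b2 (2L, 15484729 to 15485545), a paralog of the inner membrane channel protein Tim17, was listed at a mean of 0 per the authors' deposited table. Its exons share no base with another gene. porin, the gene of the outer membrane channel VDAC, which is no member of the set, was 1.72-fold higher in young guts per the authors' deposited table (log2 0.78, adjusted p = 5.07e-23). Of the other genes in the list of import and membrane channel genes, Porin2 and ttm2 had means of 2.65 and 1.49 and no adjusted p, and ttm3 was listed at 0 per the authors' deposited table.

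All 4 mitochondrial synthetase genes tested were higher in young guts and none in mature, but over a wide range. LeuRS-m (3L, 4825853 to 4829038), the enzyme for leucine, was 1.71-fold higher in young guts per the authors' deposited table (95% interval 1.48 to 1.97, log2 0.77, standard error 0.11, adjusted p = 7.66e-12). AspRS-m and ProRS-m, for aspartate and proline, had log2 changes of 0.38 (adjusted p = 2.46e-05) and 0.38 (adjusted p = 0.0440) per the authors' deposited table. AlaRS-m (3L, 5146098 to 5149852), for alanine, had the smallest change of the set at log2 0.22 (95% interval 0.07 to 0.38, adjusted p = 0.0192) per the authors' deposited table. The interval of LeuRS-m lay above those of AspRS-m and AlaRS-m and overlapped that of ProRS-m. AlaRS-m ends exactly at the limit of the 3L stretch, so its level helped to place that limit.

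The 5 genes listed here as cytoplasmic synthetases have names without the ending -m and lie in the same stretches. For ThrRS, no counterpart ending RS-m was found on any arm, so whether it also serves mitochondria is not settled here. In the authors' deposited table, 2 of these 5 were higher in mature guts and none in young: AsnRS at log2 -0.33 (adjusted p = 0.00214) and SerRS at -0.28 (adjusted p = 0.00839). ThrRS, AlaRS and LeuRS had log2 changes of -0.07, -0.15 and -0.14 per the authors' deposited table and did not pass the test (adjusted p = 0.575, 0.215 and 0.365). At an unadjusted p under 0.05 the counts of these 5 were again 2 and 0. With fold changes recentred on the cytoplasmic ribosomal protein genes, all 5 were higher in mature guts. After this recentring, 31.0% of the tested features of the stretches were higher in mature guts, against 19.7% before it. For the 2 amino acids with both enzymes in the stretches, the mitochondrial and cytoplasmic genes had separate intervals. LeuRS-m ran from 0.56 to 0.98 and LeuRS from -0.35 to 0.07, while AlaRS-m ran from 0.07 to 0.38 and AlaRS from -0.32 to 0.03 on the log2 scale. The difference within a pair was not itself tested, since the estimates come from the same libraries.

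**Figure D2:**
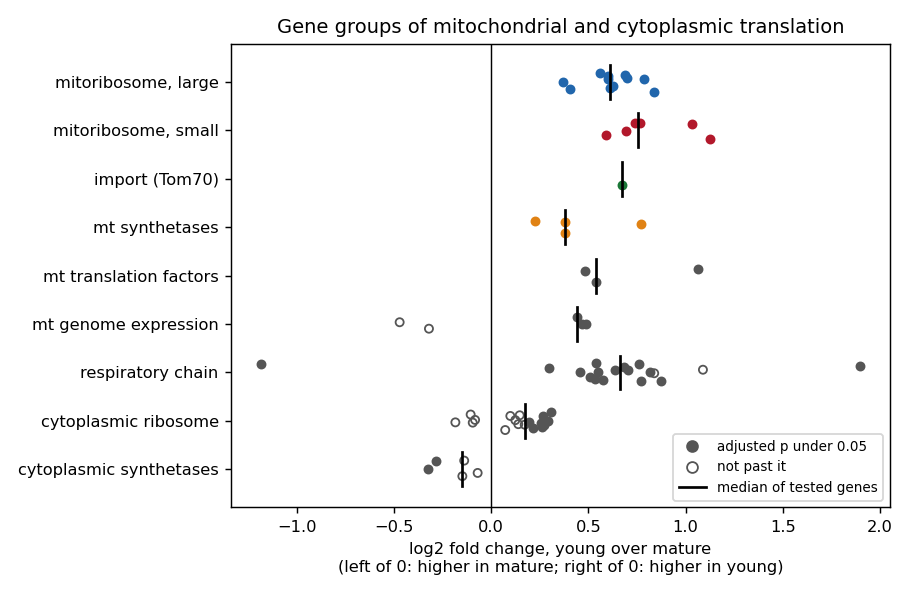
Each point is a tested gene of the 2L and 3L stretches, placed by its log2 fold change of young over mature; filled points passed an adjusted p of 0.05, open points did not, and bars mark group medians. The mitoribosomal, import and mitochondrial synthetase genes all lie right of 0, and the respiratory chain genes centre on 0.66. The 5 genes listed as cytoplasmic synthetases lie left of 0, with a median of -0.15.

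Levels were compared per kilobase of merged exons, over both ages together. The 17 mitoribosomal genes had a median of 2688 normalized counts per kb, from 1508 for mRpS18B to 5403 for mRpL28, and mRpS7 and mRpL24 came next at 3914 and 3598. Tom70 stood at 1522 normalized counts per kb. The 4 synthetase genes were the lowest of those tested, at 1297 for AlaRS-m, 1095 for AspRS-m, 776 for LeuRS-m and 633 for ProRS-m. With no value per library, which neighbours in this order differ cannot be stated. For comparison, the medians were 330 normalized counts per kb over all tested features of the stretches, 2818 over the 5 cytoplasmic synthetase genes, 14183 over 18 respiratory chain genes and 60096 over 19 cytoplasmic ribosomal protein genes. The stretches were chosen where genes that every cell needs had levels that fit their names. High levels of such genes beside the median of all features are therefore partly set by that choice. RpL21, a cytoplasmic ribosomal protein gene, ends exactly at a limit of the stretches, as AlaRS-m does. Across the 22 genes, level per kb and log2 change had a Spearman's rho of 0.18, given as a description over genes that share the same libraries.

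**Figure D3:**
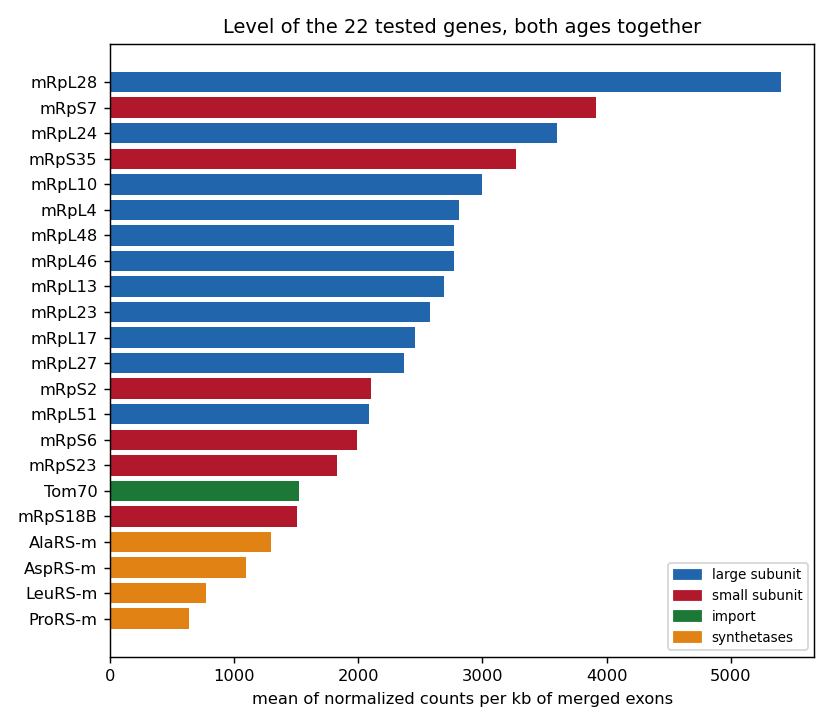
Bars give the mean of normalized counts over all libraries of both ages, divided by the length of merged exons in kb, for each of the 22 tested genes, coloured by group. mRpL28 is highest at 5403 and the 4 synthetase genes lie at the bottom, between 633 and 1297.

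**Figure D4:**
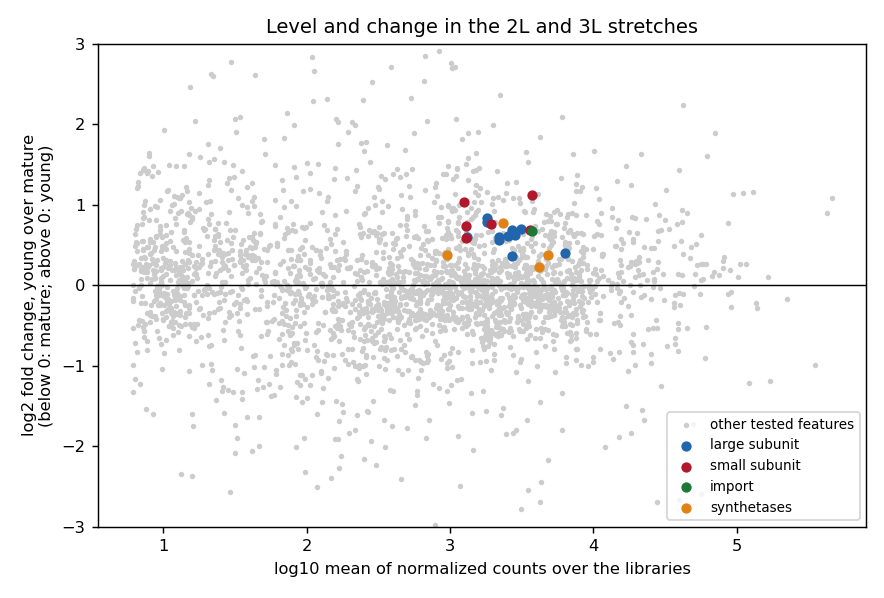
The log2 fold change of young over mature is plotted against the log10 mean of normalized counts for the tested features of the 2L and 3L stretches, with the 22 genes coloured by group and 25 other features beyond the plotted range of 3 on either side. The 22 genes sit between means of 960 and 6322, all above 0, where the other features lie on both sides of 0.

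Genes that act with the mitochondrial ribosome were examined from a list drawn up for this purpose. In the authors' deposited table, none of 3 tested mitochondrial translation factor genes was higher in mature and all 3 were higher in young guts: mEFG1, the translocation factor (log2 1.06, adjusted p = 3.69e-24), mEFTs, the nucleotide exchange partner of the elongation factor mEFTu (0.54, adjusted p = 1.91e-08), and mRF1, a peptide release factor (0.48, adjusted p = 0.0294). At an unadjusted p under 0.05 the same list again held none higher in mature. Of 5 tested genes listed for the mitochondrial genome and its expression, none was higher in mature and 3 were higher in young guts per the authors' deposited table. These were the RNA-binding bsf (log2 0.49), the RNA polymerase PolrMT (0.47) and the transcription termination factor mTTF (0.44), with adjusted p = 1.56e-10, 0.000379 and 0.00825 per the authors' deposited table. The 2 genes of DNA replication in that list, the polymerase subunit PolG1 and the helicase gene mtDNA-helicase, had log2 changes of -0.47 (adjusted p = 0.101) and -0.32 (adjusted p = 0.140) per the authors' deposited table and did not pass. At an unadjusted p under 0.05, 1 of the 5 genes, PolG1, was higher in mature guts. Once fold changes were recentred on the cytoplasmic ribosomal protein genes, both replication genes were higher in mature guts, as were 31.0% of the tested features of the stretches. After it, mRF1 and mTTF no longer passed (adjusted p = 0.186 and 0.134).

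Other mitochondrial and regulatory genes of the stretches gave mixed counts. Phb1, a prohibitin of the inner membrane, was higher in young guts (log2 0.57, adjusted p = 2.14e-14), and the matrix protease gene ClpP did not pass (0.21, adjusted p = 0.0904) per the authors' deposited table. Dref, whose protein binds a promoter element of many growth genes in Drosophila, was higher in young guts at log2 0.55 (adjusted p = 2.18e-05) per the authors' deposited table. The other regulators tested, crol and the ATF4 homologue crc, had log2 changes of 0.15 (adjusted p = 0.132) and -0.03 (adjusted p = 0.841) per the authors' deposited table.

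Respiratory chain subunits, partly made by the mitochondrial ribosome and partly imported, are the closest group in function. Of 18 nuclear respiratory chain genes tested in the stretches, 1 was higher in mature and 15 were higher in young guts per the authors' deposited table. The 2 that did not pass, ND-B8 and Cyt-c-d, had means of 7.25 and 12.9. Over the 18 genes, log2 changes ran from -1.18 for COX7AL2 to 1.90 for Cyt-c-p, with a median of 0.66. Against that median, the intervals of 16 of the 22 genes reached across it, those of mRpS35 and mRpS6 lay above it, and those of mRpL28, mRpL10, AspRS-m and AlaRS-m lay below it. Cytoplasmic ribosomal protein genes had a median of 0.17, with none of 19 higher in mature and 9 higher in young guts per the authors' deposited table. The whole interval lay above 0.17 for 19 of the 22 genes, the exceptions being mRpL10, ProRS-m and AlaRS-m. With all fold changes recentred on the cytoplasmic ribosomal proteins, these 3 genes no longer passed (adjusted p = 0.262, 0.318 and 0.681), and the other 19 remained higher in young guts, where 15.8% of tested features of the stretches were then called in that direction and 31.0% higher in mature.

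The 23 genes are scattered over the stretches. Of 46 nearest protein-coding neighbours whose span does not overlap theirs, 42 were tested. Of these, 15 were higher in mature guts, 7 were higher in young guts and 20 did not pass, with a median log2 change of -0.16 per the authors' deposited table, beside the 19.7% and 20.7% of all tested features of the stretches given above. mRpL48, for example, lies 40 bases from CG17660 (log2 -0.46) and mRpS23 lies 491 bases from CenG1A (-0.77), both higher in mature guts per the authors' deposited table. On either side of mRpS35, Atg2 was higher in mature guts (log2 -0.25, adjusted p = 0.0180) and Pgant6, 149 bases away, higher in young (0.61, adjusted p = 3.06e-08) per the authors' deposited table. Beside mRpS6, CG33514 was higher in young guts (log2 1.10, adjusted p = 9.35e-13) and Cip4 did not pass (0.06, adjusted p = 0.658) per the authors' deposited table. Exons of 15 of the 23 genes share bases with another gene, and how the counting treated shared bases and strand is not given, so reads of these genes may not have been told apart. mRpL13 and its partner CG10602 lie on the same strand, where no strand setting would separate their shared bases; the other partners lie on the opposite strand. In 4 cases the partner had the higher mean. mRpL13 shares 236 of its 671 exon bases with CG10602 (log2 0.08, adjusted p = 0.510), and ProRS-m shares 45 with CG1246 (log2 1.24, adjusted p = 8.14e-18) per the authors' deposited table. mRpL23 and mRpL51 share 33 and 3 bases with CG8993 and PIG-U, which did not pass the test. The 7 tested genes that share no exon base, among them mRpS35, mRpS6, mRpS7 and LeuRS-m, were all higher in young guts, with a median log2 change of 0.69.

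Markers of other tissues were listed as follows, and their part in the changes above was not tested. Of 3 muscle genes, Msp300 was higher in mature and Mhc and sls were higher in young guts (log2 -0.21, 0.90 and 0.63) per the authors' deposited table. All 3 fat body genes tested were higher in young guts, at means of 69.8 to 109, and of 4 hemocyte genes tested 1 was higher in mature and 3 in young. On the mature side was crq (mean 8852, log2 -0.57). On the young side were Pxn (mean 3049, log2 0.32), Sr-CI (mean 35.7, log2 1.43) and NimC1 (mean 26.6, log2 1.54) per the authors' deposited table. Of 3 testis genes tested 1, twe, was higher in mature, and ProtA and aly were listed at 0. The neuronal gene nSyb was higher in mature (log2 -1.91) and the tracheal gene trh higher in young (0.58), whereas Syt1 (0.98, adjusted p = 0.0739) and the Malpighian tubule gene Uro (-1.16, adjusted p = 0.0732) did not pass per the authors' deposited table.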

How the data were processed

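Per the labels' protocols, Trizol-extracted total RNA was read on a NovaSeq as paired reads. The submitters' processing notes name HISAT2, Trim Galore and DESeq2, with build BDGP6 and no versions. How reads were counted, with which strand setting and annotation, is not given in the sources used here. The mean deposited by the authors is a signal that is never negative, normalized counts averaged over the libraries. The fold change and standard error deposited by the authors were read as log2 values of young over mature. The deposited Wald score equals their ratio, and the p-value and adjusted p-value are those deposited by the authors. Whether folds were shrunken is not stated. Standard errors did not grow toward the lowest means: ProtB, at a mean of 0.67, had 0.26, and Cyt-c-d, at 12.9, had 0.53. The folds of genes with low means may therefore be shrunken toward 0. The planned edgeR fit, leaving out replicates and the motif search were not run: counts per library and sequences were not analysed here. Since nothing says the replicates came from separate cohorts, p-values reflect a spread that may be technical.

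Depth per library was not analysed here. Of 23932 features, 23851 matched the Ensembl annotation of BDGP6, release 115, and 10458 had an adjusted p, the lowest at a mean of 6.11. Intervals are the log2 change with a normal 95% range of its standard error, not adjusted over genes. Exon overlap was counted on both strands; coordinates are 1-based. Recentring subtracts the median of the cytoplasmic ribosomal protein genes and repeats the Wald test and the Benjamini-Hochberg adjustment. The test and adjustment were tried on simulated data with a known shift. Taking the shift from the ribosomal protein genes was not tested. All members are named. Of most other lists, up to 4 genes per direction by smallest adjusted p are named, with those needed to describe the count. The respiratory chain, cytoplasmic ribosomal protein and fat body lists are given as counts. From them only cype, Cyt-c-d, Cyt-c-p, ND-B8, COX7AL2 and RpL21 are named. Genes, lists and stretches were chosen with earlier results of these data known. The list of hindgut patterning genes, the grouping by descent, neighbours and overlap partners were chosen after values were seen. Tables were processed with pandas 2.3.3 and scipy 1.17.1 under Python 3.11.15, and figures drawn with matplotlib 3.10.9.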

Additional observations from a re-analysis of the deposited data

How the results depend on the processing

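No paired analysis was possible because the tables hold no value per library, which also kept edgeR and leaving out replicates from being run. All 22 calls and their direction were kept with adjustment over the stretches or over protein-coding features alone, with a mean of at least 100 and after recentring on all tested features; without the low-mean filter 21 were kept, ProRS-m being lost. At an adjusted p under 0.01, 19 were kept, with 2 of the 4 synthetase genes. At that threshold 15.2% of the tested features of the stretches were higher in mature and 17.2% higher in young. After recentring on ribosomal protein genes, 19 were also kept, again with 2 of the 4 synthetase genes, and the large subunit's median was 0.44. That recentring also put 2 of 5 genes of the mitochondrial genome and its expression, 1 of 3 regulators and all 5 cytoplasmic synthetase genes higher in mature. That recentring put 4 of 19 cytoplasmic ribosomal protein genes higher in mature and left 0 higher in young. Since their own median was the centre, these 2 counts are no separate result. The same recentring also took mRF1, mTTF and cype out of the calls. Left higher in young were 2 of 3 translation factors, 2 of 5 genes of the mitochondrial genome and its expression, and 14 of 18 respiratory chain genes. Against a 2-fold change, 0 genes passed: 0 of the large subunit, 0 of the small subunit, 0 of import and 0 synthetases. On 2L alone 14 of 14 were higher in young, with 1 synthetase gene, and on 3L alone 8 of 8, with 3 of the large and 2 of the small subunit, whose median was then 1.08. Over the whole of 2L and 3L, where names fit the counts less well, 38 genes were tested, 1 (ValRS-m, a synthetase gene) was higher in mature and 24 were higher in young (12 of 19 of the large subunit and 4 of 8 synthetase genes), against 22 of 22 in the stretches, and medians were 0.39 for all, 0.41 for the large subunit and 0.19 for import. Over the whole table, all arms together, 15.4% of tested features were higher in mature and 16.3% higher in young. Without genes that overlap a more abundant one, 18 of 18 were higher in young. An alternative chosen after seeing the data, genes sharing no exon base, left 7 of 7, with 2 of the large subunit and 1 synthetase gene at 0.77.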

Other observations

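Another 80 genes with the same kinds of name lie outside the stretches, where the fit of names to counts is in doubt, so their values are given without a reading. Of these, 34 were listed at 0 and 39 had an adjusted p, with 2 higher in mature, 4 higher in young and a median log2 change of -0.0048 (young over mature) per the authors' deposited table. The nearest to the limits were, inside, mRpS18B on 2L (mean 1302) and AlaRS-m on 3L (mean 4195), and outside, Tim23 on 2L, listed at 0, and mRpL50 on 3L (mean 826, log2 0.35, adjusted p = 0.0773) per the authors' deposited table.

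Inside the 2L stretch, 2 genes of mitochondrial gene expression were listed at 0 per the authors' deposited table: PolG2, the accessory subunit of the mitochondrial DNA polymerase, and GatC, a subunit of the amidotransferase that corrects glutamine tRNA. In the annotation both span 13831482 to 13833105 on the same strand and share all 1570 of their exon bases. The zeros are therefore not given as a lack of expression; how reads shared by 2 genes were counted is not given in the sources used here.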
